A study of Mus musculus with 13 samples.

Results

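The neurofilament genes Nefl, Nefm, Nefh and Ina encode the subunits of the intermediate filaments of central nervous axons, and were examined as 4 of the 55416 genes counted in mouse brain tumors and normal brain. They were chosen by name from earlier results of the same data, by their Ensembl identifiers in the gene annotation GENCODE M21. Their levels and fold changes are therefore a description, and no p-value is given for them. Polyadenylated RNA was sequenced from 13 libraries. The 5 PDGFB tumors carried a lentivirus with PDGFB, a platelet-derived growth factor, and a short hairpin RNA against p53 (genotype label PDGFB-shP53). The 5 RAS tumors carried HRasV12, an oncogenic Ras, with the same hairpin (genotype label HrasV12-shp53). Both kinds were induced in motor cortex, in mice of the CNP-Cre line, where the promoter of the oligodendrocyte gene Cnp drives Cre, and GFP+ tissue was taken from 5 mice per tumor group when disease had reached its clinical end. The 3 normal brain libraries came from mice labelled WT, and neither the brain region nor the number of animals behind them is given, so libraries may share animals; the title of 1 of them begins with other letters than those of the other 2, and it was placed by its tissue label. A label speaks of normal tissue trimmed from around tumors without saying whether these samples are that tissue, and the age of the mice is not given in the sources used here.

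Neurofilaments fill the shaft of axons, set their calibre and with it the speed at which they conduct. A light subunit (Nefl), a medium (Nefm) and a heavy (Nefh) assemble with alpha-internexin (Ina), and the long tails of the medium and heavy subunits stand off the filament and carry many phosphate groups. The proteins are made in the cell body and carried down the axon by slow transport. In mature brain the genes are expressed by neurons, most strongly by large projection neurons with long axons, so that in bulk tissue their RNA is used to follow neurons; fewer neurons and less RNA per neuron cannot be told apart here.

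The libraries held 529162 to 643055 reads counted for genes (median 608897), while 95.2% to 95.7% of the reads mapped to 1 place lay outside all counted genes. The precision of a gene with few reads is limited accordingly, and levels are given as read counts and as CPM, the reads of a gene per 1000000 reads counted for genes. Reads stood mainly under genes that lie opposite another gene: 84.0% were counted under the 16.1% of genes with an exon on the other strand of an exon of another gene. The strand setting of the authors' count is not given in the sources used here, so reads of a gene and of its opposite partner cannot be told apart, and a value belongs to a row of the count table rather than to a transcript. Neuron markers marked the normal brain: all 22 genes of a neuron list had reads there, and their sum was 3248 to 3468 CPM, against 325 to 747 CPM in PDGFB tumors and 159 to 885 CPM in RAS tumors. RAS tumor 2 held the 885, with 319 the next highest RAS tumor, and where leaving it out moves a fold change given below by over 1.5 times, the value without it follows.

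Of the 4 genes, Nefh alone has no gene opposite it. Nefl (ENSMUSG00000022055) lies on the plus strand of chromosome 14 at 68083863 to 68089095 (GRCm38) and has 3380 bases of exon. Nefm (ENSMUSG00000022054) lies on the minus strand at 68082590 to 68124846 with 5782 bases of exon in all its models together. One Nefm model, Nefm-202, ends in an exon 4 of 2381 bases (68082590 to 68084970), mostly untranslated, that runs across the start of Nefl. It shares 1108 bases with exon 1 of Nefl, which make up 32.8% of the Nefl exons and 19.2% of the Nefm exons. The RefSeq model of Nefm stops at 68119545 and does not reach Nefl. Ina (ENSMUSG00000034336) lies on the plus strand of chromosome 19 at 47014698 to 47025327 with 3240 bases of exon. Exon 1 of the model Nt5c2-203 covers its first 456 bases on the minus strand, 14.1% of the Ina exons; Nt5c2 encodes a cytosolic nucleotidase. Nefh (ENSMUSG00000020396) lies on the minus strand of chromosome 11 at 4938754 to 4948064 with 3994 bases of exon. A processed pseudogene, Gm19216, sits in an intron of Nefm-202 and had 0 reads in all 13 libraries.

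The sequences below, from the GENCODE M21 transcripts, show where a read can belong to either gene and what sets Nefh apart. In the first pair, both from coding parts of exon 1 and written 5′ to 3′ along the plus strand, capitals mark bases that also lie in an exon of the opposite gene and lower case marks bases that do not.
Nefl, chr14:68084941-68085000, plus strand: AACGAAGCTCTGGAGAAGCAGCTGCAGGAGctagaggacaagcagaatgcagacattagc
Ina, chr19:47015124-47015183, plus strand: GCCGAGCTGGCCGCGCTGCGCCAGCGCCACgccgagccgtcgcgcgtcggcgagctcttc
Reads from the capital side of either stretch fit exons of both strands, and reads from the other side fit the neurofilament gene alone. The next stretch lies in exon 4 of Nefh, on the minus strand, and capitals mark codon runs for lysine, serine and proline, the site at which neurofilament tails are phosphorylated.
Nefh, chr11:4940974-4941063, minus strand: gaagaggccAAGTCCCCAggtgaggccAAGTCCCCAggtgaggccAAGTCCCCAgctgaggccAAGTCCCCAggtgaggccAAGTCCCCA
This is the stretch of 90 bases richest in such runs, with 5 of them. The run was searched in frame on the coding strand as AAA or AAG, then TCN, AGC or AGT, then CCN. Nefh held 51 runs in 1090 codons, Nefm-201 held 4 in 848, and Nefm-202 (470 codons), Nefl (543 codons) and Ina (501 codons) held 0. Of 21739 genes with a whole coding sequence, 10.8% held at least 1 run and no other gene held more than 11.

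**Figure D1:**
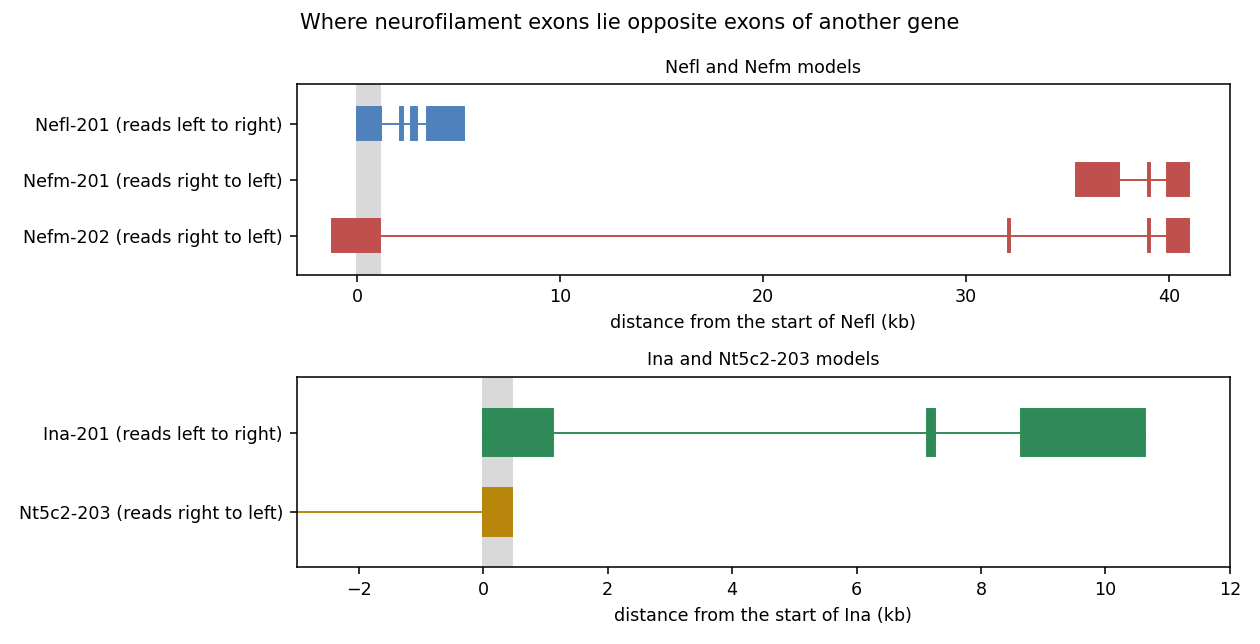
Exons (boxes) of Nefl with the Nefm models and of Ina with Nt5c2-203, along the distance in kb from the start of Nefl and of Ina; grey marks bases in exons of both genes. Exon 4 of Nefm-202 covers 1108 bases of Nefl, and exon 1 of Nt5c2-203 covers the first 456 bases of Ina.

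The row of Nefl, whose protein forms the core of the filament and is measured in blood as a marker of axon damage, was low in PDGFB tumors. In RAS tumors it lay within or above the normal range. Its reads may be those of Nefm, and reads of Nefl may stand under Nefm, so the count is not that of the Nefl transcript. The Nefl row held 6, 14, 5, 9 and 2 reads in PDGFB tumors 1 to 5. RAS tumors 1 to 5 held 124, 79, 111, 192 and 184 reads, and the 3 normal brains 80, 78 and 74. All PDGFB tumors lay below all libraries of the other groups. RAS tumors 1, 3, 4 and 5 lay above every normal brain, with tumors 4 and 5 the highest of all, and RAS tumor 2 lay within the normal range. The level averaged 11.7 ± 7.51 CPM in PDGFB tumors, 223 ± 72.6 CPM in RAS tumors and 135 ± 12.6 CPM in normal brain (SD, n = 5, 5 and 3). The fitted difference was a log2 fold change of −3.74 ± 0.39 (SE) for PDGFB tumors against normal brain, that is 13.4-fold lower. It was 0.64 ± 0.34 for RAS tumors against normal brain, and 0.91 without RAS tumor 2. Between the tumors it was −4.38 ± 0.37 for PDGFB against RAS, or 20.8-fold lower in PDGFB tumors.

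The row of Nefm, the medium subunit with a phosphorylated tail, followed the same order of groups at a far higher count. Its reads may include those of Nefl, so the count is that of the row and not of the Nefm transcript. PDGFB tumors 1 to 5 held 98, 206, 207, 209 and 124 reads, against 3611, 2113, 2255, 5154 and 2533 in RAS tumors 1 to 5 and 2563, 2232 and 2365 in normal brain. Again no PDGFB tumor overlapped another group, and the RAS tumors spread around normal brain, from RAS tumor 2 below it to RAS tumor 4 well above. The level averaged 276 ± 90.1 CPM in PDGFB tumors, 5069 ± 1991 CPM in RAS tumors and 4164 ± 233 CPM in normal brain. By mean CPM the row ranked 672 of 55416 genes in PDGFB tumors, against 17 in RAS tumors and 11 in normal brain. Log2 fold changes were −4.15 ± 0.29 (17.8-fold lower) for PDGFB tumors against normal brain, 0.19 ± 0.28 for RAS tumors against normal brain and −4.35 ± 0.28 (20.3-fold lower) for PDGFB against RAS tumors.

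Since reads in the shared bases may stand under either name, the rows of Nefl and Nefm were also summed. The sum averaged 288 ± 94.7 CPM in PDGFB tumors, 5292 ± 2037 CPM in RAS tumors and 4299 ± 242 CPM in normal brain. Its log2 fold changes were −4.14 ± 0.29 for PDGFB tumors against normal brain, 0.21 ± 0.28 for RAS tumors against normal brain and −4.35 ± 0.28 for PDGFB against RAS tumors. The division itself varied: Nefm held 14.7 to 62.0 reads per Nefl read in PDGFB tumors (23.4 over all reads), 13.8 to 29.1 in RAS tumors (22.7) and 28.6 to 32.04 in normal brain (30.9). The ratios of 62.0 and 41.4 came from PDGFB tumors 5 and 3, with 2 and 5 Nefl reads.

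Nefh, the heavy subunit with the longest phosphorylated tail, was low in both kinds of tumor. Its row held 2, 9, 22, 20 and 4 reads in PDGFB tumors 1 to 5. RAS tumors 1 to 5 held 1, 23, 1, 3 and 5 reads, and normal brain held 111, 105 and 109. Every normal brain lay above every tumor, the tumor groups overlapped, and 23 of the 33 reads in RAS tumors came from RAS tumor 2. The level averaged 18.7 ± 15.04 CPM in PDGFB tumors, 10.7 ± 15.3 CPM in RAS tumors and 189 ± 9.15 CPM in normal brain. The log2 fold change was −3.56 ± 0.60 (11.8-fold lower) for PDGFB tumors and −4.22 ± 0.64 (18.7-fold lower) for RAS tumors, each against normal brain. Between PDGFB and RAS tumors it was 0.66 ± 0.67 in the fit that includes normal brain. When the tumors were fitted alone the row did not pass the low-count filter. Without RAS tumor 2 the log2 fold change was −5.44 (43.4-fold lower) for RAS tumors against normal brain and 1.97 for PDGFB against RAS tumors.

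Ina, or alpha-internexin, appears in developing neurons before the other subunits and is a partner of them in the adult brain. Its row, which may include reads of Nt5c2, kept more of its level in PDGFB tumors than in RAS tumors. The row held 30, 29, 25, 34 and 27 reads in PDGFB tumors 1 to 5, the tightest spread of the 4 rows in that group. RAS tumors 1 to 5 held 1, 25, 1, 3 and 4 reads, and normal brain 56, 79 and 72. RAS tumor 2 alone reached the PDGFB range, and both tumor groups lay wholly below normal brain. The level averaged 47.3 ± 5.67 CPM in PDGFB tumors, 11.1 ± 16.9 CPM in RAS tumors and 121 ± 27.0 CPM in normal brain. Against normal brain the log2 fold change was −1.59 ± 0.48 (3.01-fold lower) in PDGFB tumors and −3.54 ± 0.55 (11.6-fold lower) in RAS tumors. For PDGFB against RAS tumors it was 1.95 ± 0.52 (3.86-fold higher), and without RAS tumor 2 it was 3.45, with −4.94 for RAS tumors against normal brain.

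**Figure D2:**
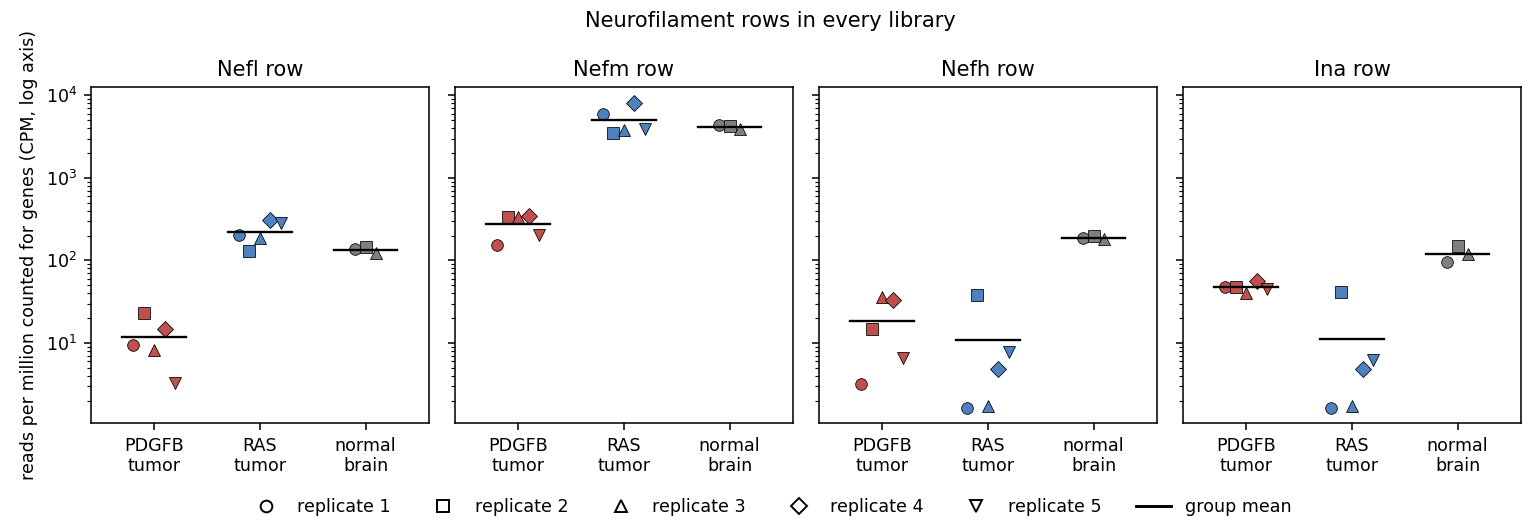
Level (CPM, log axis) of each neurofilament row in PDGFB tumors, RAS tumors and normal brain, 1 point per library with a shape for its replicate number and a bar at the group mean. Nefl and Nefm sit low in PDGFB tumors alone (means 11.7 and 276 CPM), Nefh is low in both kinds of tumor, and Ina is lowest in the RAS tumors other than RAS tumor 2.

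Nt5c2, which lies opposite the start of Ina, was measured beside it because its row may hold reads of Ina. It held 38, 21, 24, 52 and 27 reads in PDGFB tumors 1 to 5, against 2, 65, 3, 11 and 10 in RAS tumors 1 to 5 and 159, 147 and 160 in normal brain. RAS tumor 2 was again the highest of its group, at 107 CPM against 17.5 CPM in the next. Nt5c2 was lower than normal brain in PDGFB tumors (log2 fold change −2.59 ± 0.58, adjusted p = 0.00164) and in RAS tumors (−3.30 ± 0.61, adjusted p = 1.98e-04, and −4.62 without RAS tumor 2). Adjusted p-values here and below are from edgeR's quasi-likelihood test with Benjamini-Hochberg adjustment over 7722 genes. Between the tumors it did not pass the threshold of 0.05 (0.71 ± 0.58, adjusted p = 0.369), but did without RAS tumor 2 (2.13, adjusted p = 3.41e-04) and in limma-voom (adjusted p = 0.0296). Nt5c2 held 0.724 to 1.53 reads per Ina read in PDGFB tumors, 2.0 to 3.67 in RAS tumors and 1.86 to 2.84 in normal brain, so the rows did not keep a fixed ratio.

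All 4 members passed the low-count filter over the 13 libraries, Nefh and Ina with few reads in most RAS tumors. Nefh did not pass it when the tumors were fitted alone. In the fit over all genes 4 of 4 were called lower in PDGFB tumors against normal brain, where 45.3% of genes tested were called, 25.1% as lower and 20.2% as higher. For RAS tumors against normal brain 2 of 4 were called lower, Nefh and Ina, beside 56.2% of genes in either direction, 29.3% lower and 26.9% higher. Between PDGFB and RAS tumors 2 of 4 were called lower (Nefl and Nefm) and 1 higher (Ina), beside 32.1% in either direction, 17.4% lower and 14.6% higher. Since the genes were chosen with these contrasts known, nothing is read from those counts. They changed when 1 library was left out: without normal brain 2, 3 were lower in PDGFB tumors against normal brain. Without RAS tumor 2, 1 was higher in RAS tumors against normal brain, and 2 were higher in PDGFB than in RAS tumors.

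**Figure D3:**
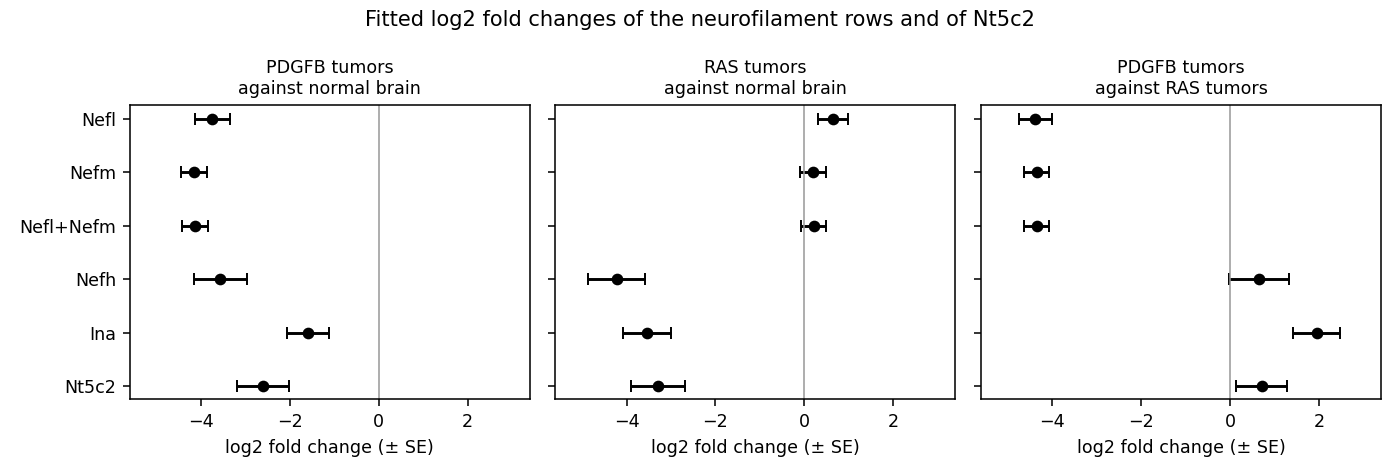
Fitted log2 fold changes (points) with their standard errors (bars) of the neurofilament rows, of Nefl and Nefm summed and of Nt5c2, for PDGFB tumors against normal brain, RAS tumors against normal brain and PDGFB against RAS tumors. Against normal brain Nefl and Nefm are near −4 in PDGFB tumors and near 0 in RAS tumors, while Nefh and Ina lie below 0 in both.

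Per kb of exon, the Nefm row stood above the other rows in every group. The rows of Nefl, Nefm and Ina may hold reads of an opposite gene, so the order is one of rows and not of transcripts. In normal brain Nefm averaged 720 ± 40.3 CPM per kb, followed by Nefh at 47.4 ± 2.29, Nefl at 40.0 ± 3.72 and Ina at 37.4 ± 8.34 (SD, n = 3). The spread of Ina overlapped that of Nefl and that of Nefh. In PDGFB tumors Nefm averaged 47.7 ± 15.6 CPM per kb and Ina 14.6 ± 1.75, ahead of Nefh at 4.68 ± 3.77 and Nefl at 3.48 ± 2.22, which did not differ beyond their spread. In RAS tumors Nefm averaged 877 ± 344 CPM per kb and Nefl 65.8 ± 21.5, ahead of Ina at 3.42 ± 5.21 and Nefh at 2.69 ± 3.84, again within their spread. By mean, the second place among the rows thus went to Ina in PDGFB tumors, to Nefl in RAS tumors and to Nefh in normal brain. Over all 13 libraries Nefl and Nefm had the most alike profiles, with a root-mean-square difference of 0.49 between their mean-centred log2 CPM, followed by Nefh and Ina with 1.09. The other pairs differed by 2.55 to 3.05.

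Set against the neuron markers of the same library, the rows fell into different patterns. Nefl and Nefm together held 0.482 to 0.681 reads per read of the neuron list in PDGFB tumors, 4.07 to 53.5 in RAS tumors and 1.21 to 1.39 in normal brain, so that the groups did not overlap. RAS tumor 2, with the most neuron-marker reads of its group, had the 4.07, and RAS tumors 1 and 4, with the fewest, had 37.7 and 53.5. For Nefh the ratio was 0.00966 to 0.0627 in PDGFB tumors, 0.00709 to 0.0427 in RAS tumors and 0.0542 to 0.0582 in normal brain. PDGFB tumor 3 exceeded normal brain in it, and the RAS tumors lay below. For Ina it was 0.0712 to 0.145 in PDGFB tumors, 0.00709 to 0.0464 in RAS tumors and 0.0294 to 0.0431 in normal brain, and every PDGFB tumor lay above all other libraries. RAS tumors thus held 3598 to 8501 CPM of Nefl and Nefm together, against 4031 to 4501 CPM in normal brain, in libraries whose neuron markers lay far below the normal range. What part other cell types have in this was not tested.

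**Figure D4:**
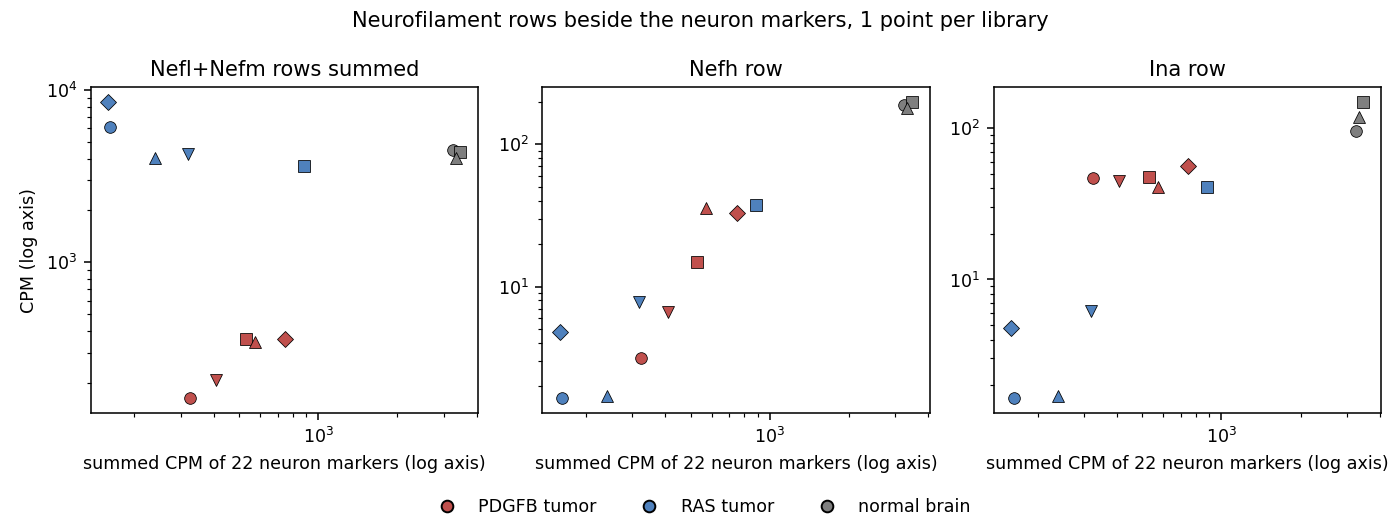
CPM of Nefl and Nefm summed, of Nefh and of Ina (log axes) against the summed CPM of 22 neuron markers (log axis), 1 point per library, coloured by group. Normal brains lie at 3248 to 3468 CPM of neuron markers; RAS tumors keep 3598 to 8501 CPM of Nefl and Nefm at 159 to 885 CPM of markers, and Nefh and Ina are low where the markers are low, except that Ina stays at 40.8 to 56.2 CPM in PDGFB tumors.

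The neuron list itself fell in both tumors: of 20 markers tested 19 were lower in PDGFB tumors (median log2 fold change −3.29) and 19 in RAS tumors (−3.72), against a median of all genes of −0.00 and 0.02. Over all genes tested, 25.1% were called lower and 20.2% higher in PDGFB tumors against normal brain, and 29.3% and 26.9% in RAS tumors. Between PDGFB and RAS tumors 17.4% were called lower and 14.6% higher. The counts of this and the other lists stand beside those shares. Camk2a, a kinase of excitatory synapses, was lower, with a log2 fold change of −4.09 ± 0.69 in PDGFB tumors (25.6 ± 14.8 against 372 ± 14.0 CPM, adjusted p = 1.58e-04). Snap25, part of the machinery of transmitter release, was lower, with a log2 fold change of −4.62 ± 0.77 in RAS tumors (17.5 ± 29.6 against 404 ± 33.6 CPM, adjusted p = 8.04e-05), and of −6.28 without RAS tumor 2. Between PDGFB and RAS tumors 1 marker passed the test, Rtn1, a reticulon of the neuronal endoplasmic reticulum (log2 fold change 1.49 ± 0.38, adjusted p = 0.00685); without RAS tumor 2 it was 11 of them. Gap43, a growth-cone protein, was the marker not called against normal brain in either tumor.

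Markers of other cell types differed between the same groups. The 10 oligodendrocyte precursor markers summed to 967 to 1316 CPM in PDGFB tumors, 114 to 513 CPM in RAS tumors and 201.6 to 244 CPM in normal brain, and all 10 were higher in PDGFB than in RAS tumors (median log2 fold change 2.25). The 12 macrophage and microglia markers summed to 287 to 372 CPM in PDGFB tumors, 566 to 883 CPM in RAS tumors and 287 to 310 CPM in normal brain, and 5 of 6 tested were higher in RAS tumors than in normal brain. Astrocyte markers summed to 232 to 519 CPM in PDGFB tumors, 117 to 670 CPM in RAS tumors and 658 to 824 CPM in normal brain. Mature oligodendrocyte markers summed to 808 to 892 CPM in PDGFB tumors, 599 to 921 CPM in RAS tumors and 1599 to 2329 CPM in normal brain. Endothelial markers reached at most 80.2 CPM in any library and none was tested. The choroid plexus and ependyma list held 198 to 248 CPM in PDGFB tumors, 86.8 to 211 CPM in RAS tumors and 338 to 502 CPM in normal brain. Of its markers Folr1, Kl and Tmem212 had 0 reads in PDGFB tumors, Ttr, Kl, Ccdc153 and Tmem212 had 0 in RAS tumors, and Tmem212 had 0 in normal brain. In the oligodendrocyte list Opalin had 0 reads in RAS tumors, in the endothelial list Cldn5 had 0 in normal brain, and in the other lists given here every marker had reads in every group. Their part in the neurofilament levels was not tested.

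The other intermediate filament genes that passed the test against normal brain were higher in the tumors. Of 12 in the list 6 were tested, and 4 were higher in PDGFB tumors than in normal brain (median log2 fold change 2.37) and 4 in RAS tumors (3.52), with none lower. Nes, encoding nestin of neural progenitors, held 59 to 87 reads in PDGFB tumors, 90 to 166 in RAS tumors and 0 in all 3 normal brains. It was at least 63.2-fold higher in PDGFB tumors and at least 117-fold higher in RAS tumors, taking 3 reads over the normal group as a floor (adjusted p = 1.64e-07 and 1.87e-08). Vim, encoding vimentin, averaged 240 ± 34.4 CPM in PDGFB tumors and 538 ± 157 CPM in RAS tumors, against 9.12 ± 5.02 CPM in normal brain (log2 fold changes 4.44 ± 0.37 and 5.75 ± 0.38, adjusted p = 1.84e-07 and 1.11e-08). Without normal brain 3 they were 5.06 and 6.37. Both were lower in PDGFB than in RAS tumors, with log2 fold changes of −1.03 ± 0.22 for Nes (adjusted p = 0.00220) and −1.32 ± 0.23 for Vim (adjusted p = 3.07e-04). Gfap, the filament of astrocytes, averaged 94.0 ± 56.4 CPM in PDGFB tumors, 82.7 ± 93.9 CPM in RAS tumors and 39.1 ± 17.4 CPM in normal brain and passed no test (adjusted p = 0.232 to 0.939). Synm, encoding synemin, did not pass the low-count filter and was not tested: it had 1 to 5 reads in PDGFB tumors and 0 to 3 in RAS tumors, against 7 to 16 in normal brain, where every library lay above every tumor.

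The nuclear lamins, relatives of the neurofilaments in the same family, split between the tumors. Lmna, the A-type lamin, had 5 to 8 reads in PDGFB tumors and 49, 20, 23, 46 and 246 in RAS tumors 1 to 5, against 2 to 4 in normal brain. It was higher in RAS tumors than in normal brain (4.44 ± 0.87, adjusted p = 3.50e-04) and lower in PDGFB than in RAS tumors (−3.75 ± 0.63, adjusted p = 2.76e-04). Without RAS tumor 5, which held most of the reads, these were 3.38 and −2.59 (adjusted p = 1.64e-05 and 3.52e-05). Lmnb1, a B-type lamin, had 90 reads over the PDGFB tumors and 38 over the RAS tumors, against 3 over normal brain. In CPM that was 16.8 times normal brain in PDGFB tumors (95% exact interval of the count ratio 5.58 to 83.1) and 7.08 times in RAS tumors (2.25 to 35.8). Of the 3 reads, 2 were in normal brain 1, and without it the ratios were 33.3 (5.82 to 1328) and 14.0 (2.36 to 567). It was higher in PDGFB than in RAS tumors (1.10 ± 0.34, adjusted p = 0.0190), a call that ended without PDGFB tumor 1 (adjusted p = 0.0511). Sync, encoding syncoilin and opposite Rbbp4, was higher in PDGFB than in RAS tumors (1.02 ± 0.24, adjusted p = 0.00380). Prph, encoding peripherin, the neurofilament partner of peripheral neurons, had 5 reads over the PDGFB tumors and 0 elsewhere and was not tested.

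Genes of axonal microtubules, the tracks beside which neurofilaments lie, were mostly lower than normal. Of 17 tested, 4 were higher and 11 lower in PDGFB tumors against normal brain (median log2 fold change −1.38), and 3 higher and 11 lower in RAS tumors (−1.34). Mapt, encoding the axonal protein tau, was lower, with log2 fold changes of −2.07 ± 0.49 in PDGFB tumors and −3.45 ± 0.55 in RAS tumors (adjusted p = 0.00235 and 5.47e-05). Without RAS tumor 2 its change in RAS tumors was −4.91. Tubb4a, a tubulin of mature brain, was lower, with log2 fold changes of −2.05 ± 0.32 in PDGFB tumors and −3.13 ± 0.35 in RAS tumors (adjusted p = 8.47e-05 and 1.76e-06). The genes that were higher include Tuba1a and Dpysl3, both of growing neurites in development. Tuba1a was higher, with log2 fold changes of 1.16 ± 0.21 in PDGFB tumors and 1.15 ± 0.21 in RAS tumors (adjusted p = 2.55e-04 and 1.69e-04). Dpysl3 was higher, with log2 fold changes of 2.69 ± 0.37 in PDGFB tumors and 2.71 ± 0.37 in RAS tumors (adjusted p = 2.32e-05 and 1.15e-05). Stmn3, a stathmin that binds free tubulin, was lower, with log2 fold changes of −2.56 ± 0.51 in PDGFB tumors and −2.92 ± 0.54 in RAS tumors (adjusted p = 6.68e-04 and 1.91e-04).

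Between the tumors 4 of the 17 microtubule genes were higher in PDGFB than in RAS tumors and 1 was lower, beside 14.6% and 17.4% of all genes tested. The lower was Stmn2, a stathmin of growth cones, with 0, 8, 3, 6 and 1 reads in PDGFB tumors 1 to 5 against 16, 18, 8, 4 and 40 in RAS tumors 1 to 5 and 54, 21 and 37 in normal brain. Its log2 fold change was −2.35 ± 0.63 for PDGFB against RAS tumors (adjusted p = 0.00902), although the groups overlapped and the gene did not pass the low-count filter when the tumors were fitted alone, and −3.65 ± 0.64 for PDGFB tumors against normal brain (adjusted p = 2.28e-04). Dcx, of migrating young neurons, had 7 to 14 reads in PDGFB tumors, 0 to 2 in RAS tumors and 0 to 4 in normal brain. Its count ratio for PDGFB over RAS tumors was 17.7 (95% exact interval 5.75 to 88.7, adjusted p = 0.00149), or 43.03 (7.40 to 1731) without RAS tumor 3, and it was higher than normal brain in PDGFB tumors (2.55 ± 0.84, adjusted p = 0.0193). The last call ended without normal brain 1 or 3 (adjusted p = 0.0914 to 0.0962), and normal brain 2 held all 4 reads of its group; without it the gene was at least 6.86-fold higher in PDGFB tumors. Map2, of dendrites and opposite Gm10558, was higher in PDGFB than in RAS tumors (1.68 ± 0.43, adjusted p = 0.00705, and 2.598 without RAS tumor 2).

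Motors that carry neurofilaments and other cargo were lower in the tumors where they passed the test. Of 15 tested, 9 were lower in PDGFB tumors against normal brain (median log2 fold change −1.41) and 11 in RAS tumors (−1.55), with none higher. Kif5a, a kinesin of neurons implicated in neurofilament transport, averaged 56.99 ± 31.9 CPM in PDGFB tumors and 26.9 ± 37.0 CPM in RAS tumors, against 574 ± 44.6 CPM in normal brain. Its log2 fold changes were −3.57 ± 0.64 in PDGFB tumors (adjusted p = 2.59e-04) and −4.51 ± 0.68 in RAS tumors (adjusted p = 3.15e-05), with −5.55 in RAS tumors without RAS tumor 2. Kif5c, a related neuronal kinesin, was lower, with log2 fold changes of −2.65 ± 0.45 in PDGFB tumors and −2.84 ± 0.46 in RAS tumors (adjusted p = 1.48e-04 and 5.60e-05), and −3.48 in RAS tumors without RAS tumor 2. Between the tumors 2 of 15 were higher in PDGFB than in RAS tumors, beside 14.6% of all genes tested. The 2 include Myo5a, a myosin that binds neurofilaments (1.01 ± 0.29, adjusted p = 0.0123).

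In the spectrin and ankyrin skeleton under the axonal membrane, 8 of 12 genes tested were lower and 1 higher in PDGFB tumors than in normal brain (median −1.22), and 9 were lower in RAS tumors (−1.36). Ank3, the ankyrin of the axon's initial segment, was lower, with log2 fold changes of −2.06 ± 0.31 in PDGFB tumors and −1.25 ± 0.29 in RAS tumors (adjusted p = 5.22e-05 and 0.00153). Ank2, the ankyrin of the axon shaft and opposite Gm16958, was lower, with log2 fold changes of −1.22 ± 0.41 in PDGFB tumors and −3.45 ± 0.47 in RAS tumors (adjusted p = 0.0207 and 1.27e-05), and higher in PDGFB than in RAS tumors (2.24 ± 0.45, adjusted p = 0.00117). Its call in PDGFB tumors against normal brain ended with library totals and without PDGFB tumor 3 or any normal brain (adjusted p = 0.0621 to 0.131). Cntn1, a contactin made by neurons and glial precursors, had 86 to 130 reads in PDGFB tumors, 4 to 33 in RAS tumors and 32 to 37 in normal brain. It was the gene higher in PDGFB tumors than in normal brain (1.18 ± 0.42, adjusted p = 0.0306), a call that ended without PDGFB tumor 1 or any normal brain (adjusted p = 0.0603 to 0.0826). Without normal brain 3 the list had 4 calls in PDGFB tumors against normal brain, in place of 9. Between the tumors 2 were higher and 3 lower in PDGFB tumors (14.6% and 17.4% over all genes), and without RAS tumor 2 the number called was 8. Cntn1 was the largest of these changes (2.66 ± 0.39, adjusted p = 7.63e-05, and 3.29 without RAS tumor 3), while Ank3, lower in PDGFB tumors (−0.81 ± 0.30, adjusted p = 0.0449), passed in 4 of 19 alternatives.

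Kinases and phosphatases that act on neurofilament tails gave 1 higher and 7 lower of 14 tested in PDGFB tumors against normal brain (median −0.96), and 2 higher and 7 lower in RAS tumors (−0.85). Cdk5r2, an activator of the tail kinase Cdk5, was lower, with log2 fold changes of −3.52 ± 0.68 in PDGFB tumors and −3.50 ± 0.68 in RAS tumors (adjusted p = 4.64e-04 and 3.31e-04), and −4.20 in RAS tumors without RAS tumor 5; Cdk5 itself had 1 to 10 reads in every library and was not tested. Prkacb, a catalytic subunit of protein kinase A, was lower, with log2 fold changes of −2.47 ± 0.33 in PDGFB tumors and −1.75 ± 0.32 in RAS tumors (adjusted p = 1.79e-05 and 1.67e-04). Mapk10, the neuronal Jun kinase, was lower, with log2 fold changes of −1.73 ± 0.56 in PDGFB tumors and −3.66 ± 0.67 in RAS tumors (adjusted p = 0.0171 and 1.75e-04). Its call in PDGFB tumors ended without normal brain 2 or 3 (adjusted p = 0.0557 to 0.112). Without RAS tumor 2 the RAS tumors held 2 reads, and their CPM was exceeded 64.6-fold by that of normal brain (95% exact interval of the count ratio 17.4 to 542). Rock1, a kinase of the actin cytoskeleton, was higher, with 48 reads over the PDGFB tumors and 41 over the RAS tumors against 2 over normal brain. Its count ratio to normal brain was 13.5 in PDGFB tumors (95% exact interval 3.53 to 114) and 11.5 in RAS tumors (2.98 to 97.8). Between the tumors Mapk3, encoding the kinase ERK1, was lower in PDGFB than in RAS tumors (−1.61 ± 0.32, adjusted p = 9.48e-04).

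Proteins that link neurofilaments to other filaments or remove them showed no common direction. Of 6 tested, 1 was higher and 1 lower in PDGFB tumors against normal brain (median −0.26), and 1 higher and 2 lower in RAS tumors (0.09). Over all genes tested, 45.3% and 56.2% were called in either direction. Trim2, a ubiquitin ligase that binds Nefl, was lower, with log2 fold changes of −1.84 ± 0.38 in PDGFB tumors and −2.07 ± 0.39 in RAS tumors (adjusted p = 8.95e-04 and 2.57e-04). Plec, the cross-linker plectin, was higher in RAS tumors than in normal brain (1.83 ± 0.49, adjusted p = 0.00396). Dst, the cross-linker dystonin, which lies opposite Gm26788 and A930005N03Rik, was higher in PDGFB tumors than in normal brain (0.74 ± 0.25, adjusted p = 0.0242), a call that ended without PDGFB tumor 2 or normal brain 2 (adjusted p = 0.0518 to 0.0664). Stub1, a ubiquitin ligase opposite Jmjd8, was lower in RAS tumors than in normal brain (−0.72 ± 0.20, adjusted p = 0.00565).

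Genes of neurons with long or fast-firing axons, the cells richest in neurofilaments, gave 1 higher and 5 lower of 6 tested in PDGFB tumors against normal brain (median −2.49) and the same numbers in RAS tumors (−4.25). Scn4b, a sodium channel subunit, had 8 reads over the PDGFB tumors and 2 over the RAS tumors, against 60 over normal brain. The log2 fold change in PDGFB tumors was −3.86 ± 0.57 (adjusted p = 4.58e-05), and the CPM of RAS tumors was exceeded 53.7-fold by that of normal brain (95% exact interval of the count ratio 14.2 to 453, adjusted p = 6.14e-06). Scn1a, the pore of a sodium channel, had 9 reads over the PDGFB tumors and 2 over the RAS tumors, against 40 over normal brain, and was called lower in each (adjusted p = 5.84e-04 and 4.77e-05); both reads of the RAS tumors came from RAS tumor 2, and the others were at least 19.1-fold lower than normal brain. The gene that was higher was Spp1, which marks some large projection neurons and is also made by macrophages. It had 12, 31, 8, 17 and 7 reads in PDGFB tumors 1 to 5 and 341, 128, 264, 205 and 464 in RAS tumors 1 to 5, against 0, 0 and 4 in normal brain. Its log2 fold change was 7.42 ± 0.75 for RAS tumors against normal brain and −4.36 ± 0.45 for PDGFB against RAS tumors (adjusted p = 7.53e-07 and 2.40e-06). For PDGFB tumors against normal brain it was 3.06 ± 0.86 (adjusted p = 0.00790), which did not pass in limma-voom (0.0637). All 4 normal reads came from normal brain 3, and without it the gene was at least 9.09-fold higher in PDGFB tumors and at least 169-fold higher in RAS tumors. Pvalb, of fast-firing interneurons, had 6 reads over the PDGFB tumors, 0 over the RAS tumors and 9 over normal brain, and was not tested.

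The genes whose profile over the 13 libraries was most like each member's were taken from 5683 genes by the root-mean-square difference of mean-centred log2 CPM, where 0 is an identical profile. For Nefl the 5 nearest were Gja1, Ube2ql1, Cacng3, Lamb1 and Myadml2os, at 0.69 to 0.92, with a median of 2.07 over all candidates. For Nefm they were Scg2, Ube2ql1, Gja1, Cacng3 and Myadml2os, at 0.793 to 1.002 (median 2.22). Scg2, a secretogranin of dense-core vesicles, averaged 5.89 ± 5.004 CPM in PDGFB tumors, 225 ± 158 CPM in RAS tumors and 81.7 ± 8.30 CPM in normal brain. Gja1, encoding the gap-junction protein connexin 43 of astrocytes, averaged 6.57 ± 7.57 CPM in PDGFB tumors, 60.1 ± 17.5 CPM in RAS tumors and 43.99 ± 15.3 CPM in normal brain. Lamb1, a laminin chain, averaged 12.1 ± 4.88 CPM in PDGFB tumors, 94.0 ± 33.6 CPM in RAS tumors and 45.0 ± 14.0 CPM in normal brain. The genes nearest to Nefl and Nefm were thus, like them, low in PDGFB tumors and near or above normal in RAS tumors, which the choice by profile fixes.

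For Nefh the 5 nearest were Acd, Ndrg4, Arpp21, Stk16 and Exosc5, at 0.34 to 0.49 (median over all candidates 2.07). Of these Acd lies opposite Carmil2, Arpp21 opposite 2900079G21Rik, Stk16 opposite Tuba4a and Exosc5 opposite Tmem91, so that their rows may hold reads of those genes. For Ina the 5 nearest, among them Sept3, Amph, Abat and Sowaha, lay at 0.23 to 0.51 (median 1.76). Sept3, a septin of neurons with no gene opposite, averaged 37.4 ± 3.51 CPM in PDGFB tumors, 5.83 ± 8.10 CPM in RAS tumors and 94.2 ± 14.99 CPM in normal brain. Amph, encoding amphiphysin of nerve terminals, averaged 14.98 ± 3.69 CPM in PDGFB tumors, 3.89 ± 6.41 CPM in RAS tumors and 44.8 ± 15.3 CPM in normal brain. Abat, an enzyme that breaks down the transmitter GABA, averaged 17.2 ± 2.95 CPM in PDGFB tumors, 6.22 ± 10.3 CPM in RAS tumors and 55.2 ± 0.892 CPM in normal brain. Sowaha lies opposite Gm9945.

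**Figure D5:**
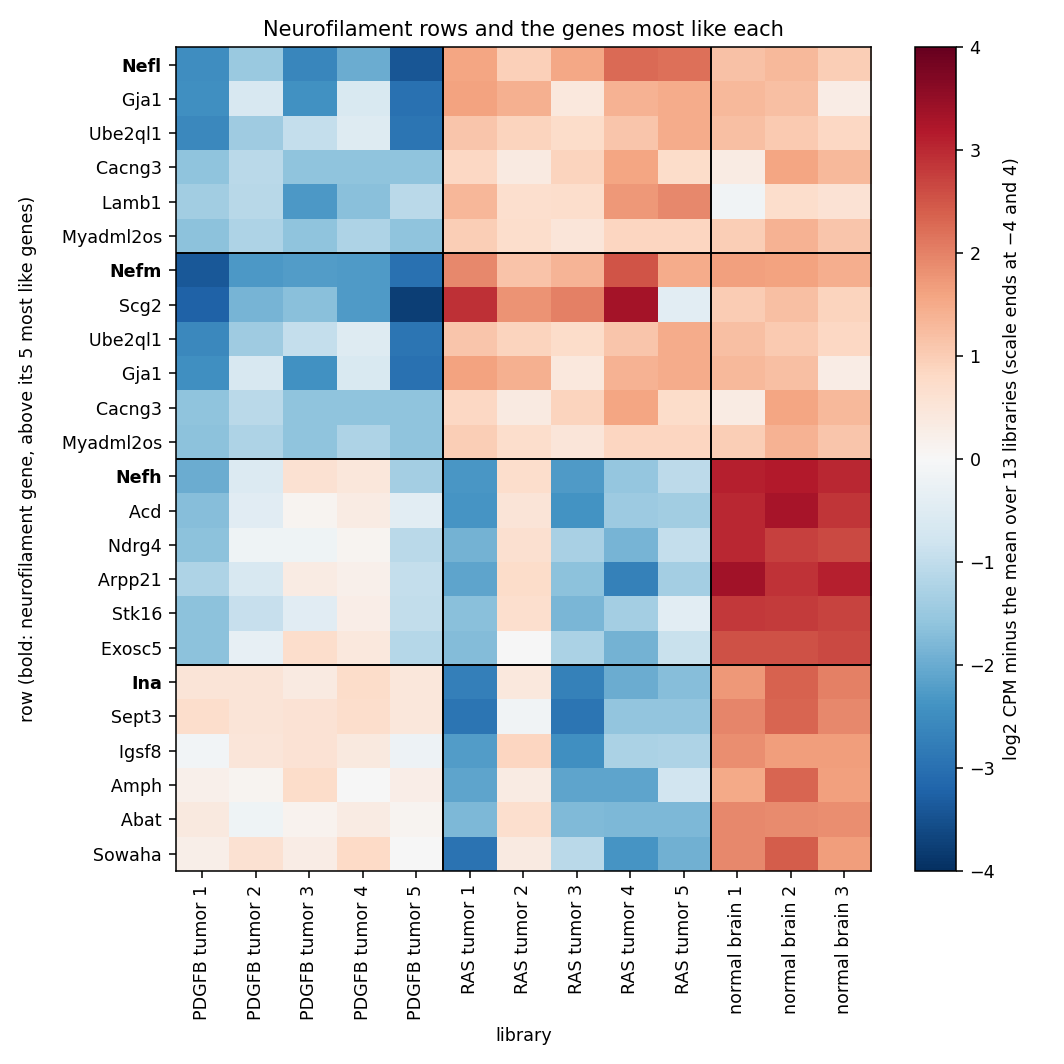
Mean-centred log2 CPM of each neurofilament row (bold) and its 5 most alike genes (rows) in the 13 libraries (columns: PDGFB tumors, RAS tumors, normal brain), red above and blue below the row's mean. Rows around Nefl and Nefm are blue in every PDGFB tumor and otherwise red, except Scg2 in RAS tumor 5 and Lamb1 in normal brain 1; rows around Nefh are red in normal brain, and rows around Ina are blue in RAS tumors 1, 3, 4 and 5 and red in normal brain.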

How the data were processed

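Polyadenylated RNA of 5 PDGFB tumors, 5 RAS tumors and 3 normal brains was isolated with Trizol and made into libraries with a TruSeq RNA kit, per the labels' protocols. Reads were processed with fastp 0.22.0 and STAR 2.7.9a on GRCm38, per the submitters' processing notes; the annotation is not given in the sources used here. The authors deposited raw read counts per Ensembl gene, with no normalization. Symbols and exons came from GENCODE M21 (52135 of 55416 genes matched).

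CPM divides by the reads counted for genes. The test was that of edgeR 4.0.16, run in R 4.3.3: filterByExpr (minimum count 10, total 15) kept 7722, TMM scaled the libraries, and the quasi-likelihood fit had 1 coefficient per group over the 13 libraries (two-sided, Benjamini-Hochberg adjusted p under 0.05). The procedure was tested on simulated data. P-values measure the spread between these libraries, which may be technical; intervals and floors cover counting error only. A fold against a group without reads uses a floor of 3 reads over the group; with 1 to 3 reads the count ratio has a 95% exact interval, and the fitted change of such genes depends on the prior count.

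The members and the 14 gene lists (178 entries, all in the table) were chosen with earlier results of these data known. Named from each list and comparison were up to 2 called genes per direction with the largest change, no overlap between groups and 10 CPM or more on average in the higher, or else the most abundant tested gene; and, per member, the 5 genes most alike in log2 CPM (prior count 2). Lists other than the 8 of neurofilament context and neurons are given by their sums and counts; Gap43, Pvalb, Prph, Synm and Cdk5 were named after their values were seen. Some genes that this rule names are not reported here, though counts and medians include them. Alternatives were library totals, median-of-ratios factors, no low-count filter, DESeq2 1.42.0 and limma-voom (limma 3.58.1). Others were the compared groups alone, leaving out each library, and the replicate number as a block. A fit restricted to genes without an opposite exon was added after seeing the data.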

Additional observations from a re-analysis of the deposited data

Results flagged for a closer look

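Of 20 sets of values in groups of 5 libraries, 4 held a library far from the rest by Dixon's criterion, where chance gives about 1 in 20; all 4 were the highest value of RAS tumors, in RAS tumor 2. It held 37.8 CPM of Nefh (next highest RAS tumor 7.78), 41.0 CPM of Ina (next 6.22), 107 CPM of Nt5c2 (next 17.5) and 885 CPM of the neuron list (next 319). Nefl and Nefm were not among them: there RAS tumor 2 was the lowest of its group, with 79 and 2113 reads.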

How the results depend on the processing

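Of 291 alternative values of the neurofilament rows, 287 were labelled as within the spread, 4 as moved and none as reversed. Of 901 values with the lists and counts of genes, 853 were labelled as unmoved, 48 as moved and none as reversed. These numbers do not measure stability, since the spread between RAS tumors includes RAS tumor 2 itself. Without it, Nefh went from −4.22 to −5.44 in RAS tumors against normal brain, and was labelled as within the spread. For PDGFB against RAS tumors Nefh went from 0.66 to 1.97, with the same label. Some alternatives also left out a library of the group not compared. Library totals shifted the median gene by 0.23, 0.09 and 0.14 (PDGFB tumors against normal brain, RAS tumors against normal brain, PDGFB against RAS tumors). They gave −1.35 for Ina in PDGFB tumors against normal brain. Leaving out 1 library gave −1.64 to −1.31 for the same value, −4.94 to −3.17 for Ina in RAS tumors against normal brain and 1.67 to 3.45 for PDGFB against RAS tumors.

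Restricting the fit to genes with no exon opposite, chosen after seeing the data, removed Nefl, Nefm and Ina with most of the counts. Genes higher and lower were then 627 and 697 in PDGFB tumors against normal brain, 862 and 869 in RAS tumors against normal brain, and 458 and 479 in PDGFB against RAS tumors. Calls were 5 transport, 5 membrane skeleton and 1 cross-linker genes in PDGFB tumors against normal brain, 7 transport and 5 membrane skeleton genes in RAS tumors against normal brain, and 3 membrane skeleton and 1 cross-linker genes between the tumors.

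For PDGFB against RAS tumors, neuron markers called were 2 with library totals, 2 with DESeq2, 4 with no low-count filter and 6 with limma-voom, and 1 to 11 leaving out 1 library. The tumors fitted alone gave 3 microtubule, 1 transport and 1 long-axon genes. With no filter, 7 intermediate filament genes were called in RAS tumors against normal brain. Leaving out 1 library gave 4 to 9 membrane skeleton and 1 to 2 cross-linker genes in PDGFB tumors against normal brain, and 1 to 3 transport, 3 to 8 membrane skeleton and 1 to 3 cross-linker genes between the tumors. The cause of these moves was not tested.

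Replicate numbers did not pair the tumors: deviations of same-numbered tumors correlated at −0.128 to 0.139, and 2 of 10 tumors correlated best with their own number. With the number as a replicate block, Nefl was −4.36, Nefm −4.32, their sum −4.32 and Ina 2.42 between the tumors, 890 genes were lower, and calls were 3 microtubule, 1 transport, 1 long-axon and 2 neuron genes. Nefh did not pass the low-count filter in that fit of the tumors alone. Of 2250 alternative values of 114 comparisons of named genes, 53 lost the call and 30 gained it. None changed sign where either value was called. Uncalled values did change sign, as Dcx in RAS tumors against normal brain, from −1.21 to 2.56 without normal brain 2. Rows with under 10 reads, as Nefh and Ina in most RAS tumors, bound differences only loosely.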
